A study of Mus musculus with 2 samples.

Results

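The genes described here are 10 genes of the tight junction, Cldn1, Cldn5, Cldn10, Cldn11, Cldn12, Ocln, Lsr, F11r, Jam2 and Tjp1. They are the rows whose gene symbol in the deposited feature lists is one of these names, 10 of 32287 features. Their levels were compared between the cell classes of mouse leptomeninges, the thin membranes (pia and arachnoid) that cover the brain. The study made 2 droplet-based (10x Chromium) single-cell RNA libraries, R1 and R2, as replicates of a single condition. The tissue came from the cerebral hemispheres of male and female mice aged 3 months that carried Pdgfra-H2BGFP, a reporter allele that places a nuclear green fluorescent protein under the control of Pdgfra. All cells therefore share genotype, age and handling, and the comparisons are of one cell class with others, over 2 libraries. How many mice went into each library is not given in the sources used here, so the spread between R1 and R2 may be partly technical.

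Tight junctions seal the space between neighbouring cells. Claudins form the sealing strands, occludin (Ocln) lies in the same strands, and Lsr gathers at the corners where several cells meet. The junctional adhesion molecules F11r (also called JAM-A) and Jam2 (JAM-B) join neighbouring membranes, and Tjp1 (ZO-1) is the scaffold that ties the strands to actin. Brain endothelial cells, whose junctions contain the Cldn5 protein, form the blood-brain barrier, and the arachnoid barrier layer is known for Cldn11-containing junctions between the cerebrospinal fluid and the dura. Cldn11 is also made by oligodendrocytes, and F11r is made by platelets and other blood cells.

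The 10 genes lie on 7 chromosomes of the mm10 build (GENCODE M21 coordinates). Cldn5 (ENSMUSG00000041378, chr16:18776847-18778262, + strand), Cldn11 (ENSMUSG00000037625, chr3:31149920-31164324, + strand) and F11r (ENSMUSG00000038235, chr1:171437535-171464603, + strand) overlap no other annotated gene, nor do Cldn1, Cldn12 and Ocln. Lsr (ENSMUSG00000001247, chr7:30957770-30973464, - strand) overlaps Gm17077 and Gm4673 on the opposite strand. Tjp1 (ENSMUSG00000030516, chr7:65296165-65527781, - strand) overlaps Gm44794 and Gm44792 on its own strand and Gm44795 on the other, and Jam2 and Cldn10 each overlap 1 short non-coding gene. Reads in such overlaps are uncertain.

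The 250 bases before the RefSeq transcription start (GRCm38.p6) are shown for 4 genes, 1 for each pattern of expression reported below. Cldn5 (chr16:18776597-18776846, + strand) was highest in endothelial-like cells, Lsr (chr7:30973470-30973719, - strand) in endothelial-like cells and then dural border-like fibroblasts, F11r (chr1:171437311-171437560, + strand) in microglia-like cells and Cldn11 (chr3:31149670-31149919, + strand) in arachnoid barrier-like cells. Each runs 5′ to 3′ on the strand of the gene, and capitals mark matches to the motifs searched.
Cldn5: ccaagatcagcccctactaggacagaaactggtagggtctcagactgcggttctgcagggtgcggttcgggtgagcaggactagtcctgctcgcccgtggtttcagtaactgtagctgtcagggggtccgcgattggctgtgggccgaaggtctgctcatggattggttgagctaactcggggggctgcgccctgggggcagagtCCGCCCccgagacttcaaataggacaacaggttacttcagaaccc
Lsr: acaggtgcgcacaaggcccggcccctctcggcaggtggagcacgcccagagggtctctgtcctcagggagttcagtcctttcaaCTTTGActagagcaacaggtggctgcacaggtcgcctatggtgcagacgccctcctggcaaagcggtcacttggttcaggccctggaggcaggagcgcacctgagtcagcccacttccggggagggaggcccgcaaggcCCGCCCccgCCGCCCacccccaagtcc
F11r: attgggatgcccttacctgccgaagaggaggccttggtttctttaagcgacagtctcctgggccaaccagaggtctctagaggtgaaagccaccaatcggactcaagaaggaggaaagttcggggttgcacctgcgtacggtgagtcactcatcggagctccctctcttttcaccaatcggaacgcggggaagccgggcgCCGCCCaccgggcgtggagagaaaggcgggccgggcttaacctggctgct
Cldn11: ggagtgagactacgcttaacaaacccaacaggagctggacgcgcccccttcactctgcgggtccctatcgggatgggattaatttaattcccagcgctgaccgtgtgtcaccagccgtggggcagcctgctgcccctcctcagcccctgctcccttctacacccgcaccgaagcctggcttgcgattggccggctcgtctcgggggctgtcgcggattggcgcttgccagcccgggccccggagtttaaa
The motifs were the GC box GGGCGG, the ETS-type CAGGAA, the SOX-type ATTGTT and the TCF/LEF-type CTTTGA, each on both strands. Of all 32851 promoter windows of this length, 32.7% held the GC box, 25.7% the ETS-type, 9.42% the SOX-type and 13.8% the TCF/LEF-type letters. The Cldn5 window held 1 GC box, F11r 1 and Lsr 2, and Lsr also held 1 TCF/LEF-type match. The Cldn11 window held none of the 4 motifs. These windows were rich in G and C, at 59.6% for Cldn5, 66.8% for Lsr, 60% for F11r and 63.6% for Cldn11, against a median of 52.4% over all windows. Windows were at hand for 9 of the 10 genes, all but Jam2. Among the genes higher in endothelial-like cells, the windows of Ocln and Tjp1 held a GC box and no match to the other motifs either. A match is a description of letters and not a binding site.

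The deposited barcodes numbered 7276 in R1 and 6743 in R2, with 14586462 and 12359040 unique molecular identifiers (UMIs, 1 for each captured transcript). After filtering, 2985 cells with 7629128 UMIs remained in R1 and 3035 cells with 6270141 UMIs in R2, at medians of 1643 and 1249 UMIs per cell. Levels are given in CPM, the UMIs of a gene divided by all UMIs of a class in a library and multiplied by 1e6. The 8 named classes were 4 fibroblast-like layers and 4 others. In R1 and R2 these held 39 and 34 arachnoid barrier-like cells, 184 and 116 pial-like, 236 and 428 inner arachnoid-like, 572 and 307 dural border-like, 325 and 309 endothelial-like, 52 and 51 mural-like, 194 and 100 microglia-like and 525 and 680 border macrophage-like cells. No tight junction gene was among the genes used to cluster or to name cells. The arachnoid barrier-like name rests on 3 of 6 markers, Dpp4, Cdh1 and Klf5, since Krt18, Krt8 and Dsp had 0 counts in both libraries. The 6 markers summed to 2253 and 1842 CPM in this class, and the 7 dural border markers to 2601 and 3306 CPM. In dural border-like cells the dural border markers summed to 11084.5 and 12905 CPM and the arachnoid barrier markers to 578 and 524 CPM. The inner arachnoid-like class was mostly barcodes poor in the nuclear RNA Malat1: 34.3% of its cells in R1 and 22.2% in R2 had at least 1% Malat1 UMIs, against 92.3% and 97.1% of arachnoid barrier-like cells.

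The 2 libraries shared 93 barcode sequences, 74 of them among kept cells, where 62 of R1 and 63 of R2 were endothelial-like and 7 of each were mural-like. Of the 74, 73 correlated best in log counts with the same barcode in the other library, with a median correlation of 0.742 against 0.50 with the other shared barcodes. All 59 cells of endothelial-like cluster C04 in R1, and all 59 in R2, carried shared barcodes. For those cells R1 and R2 are not independent samples, so C04 is described without a test. The tests, the class levels and the shares of endothelial-like and mural-like cells were repeated without the shared barcodes.

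Of the claudins, Cldn5 was by far highest in endothelial-like cells and Cldn11 in arachnoid barrier-like cells. Cldn5 stood at 6902 CPM in R1 and 6817 CPM in R2 in endothelial-like cells, 6859 ± 60.2 CPM (SD, n = 2), on 5217 and 4031 UMIs. Without the shared barcodes its level was 8183 and 8729 CPM. Mural-like cells (pericytes and vascular smooth muscle cells by their markers) came next at 473 and 131 CPM. The 6 remaining classes lay between 0 and 36.8 CPM in both libraries and overlapped each other in order, so no ranking among them held up against the spread. Arachnoid barrier-like cells had 2 Cldn5 UMIs in R1 and 0 in R2. The 2 libraries did not agree on the mural-like level, which rested on 39 and 9 UMIs. Without shared barcodes it was 31 UMIs (468 CPM) in R1 and 2 UMIs (38.8 CPM) in R2. The 11 endothelial markers summed to 2085 and 2070 CPM in mural-like cells, against 18431 and 18881 CPM in endothelial-like cells, and to 1041 and 659.6 CPM in mural-like cells without the shared barcodes. Their part in the mural-like Cldn5 value was not tested.

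**Figure D1:**
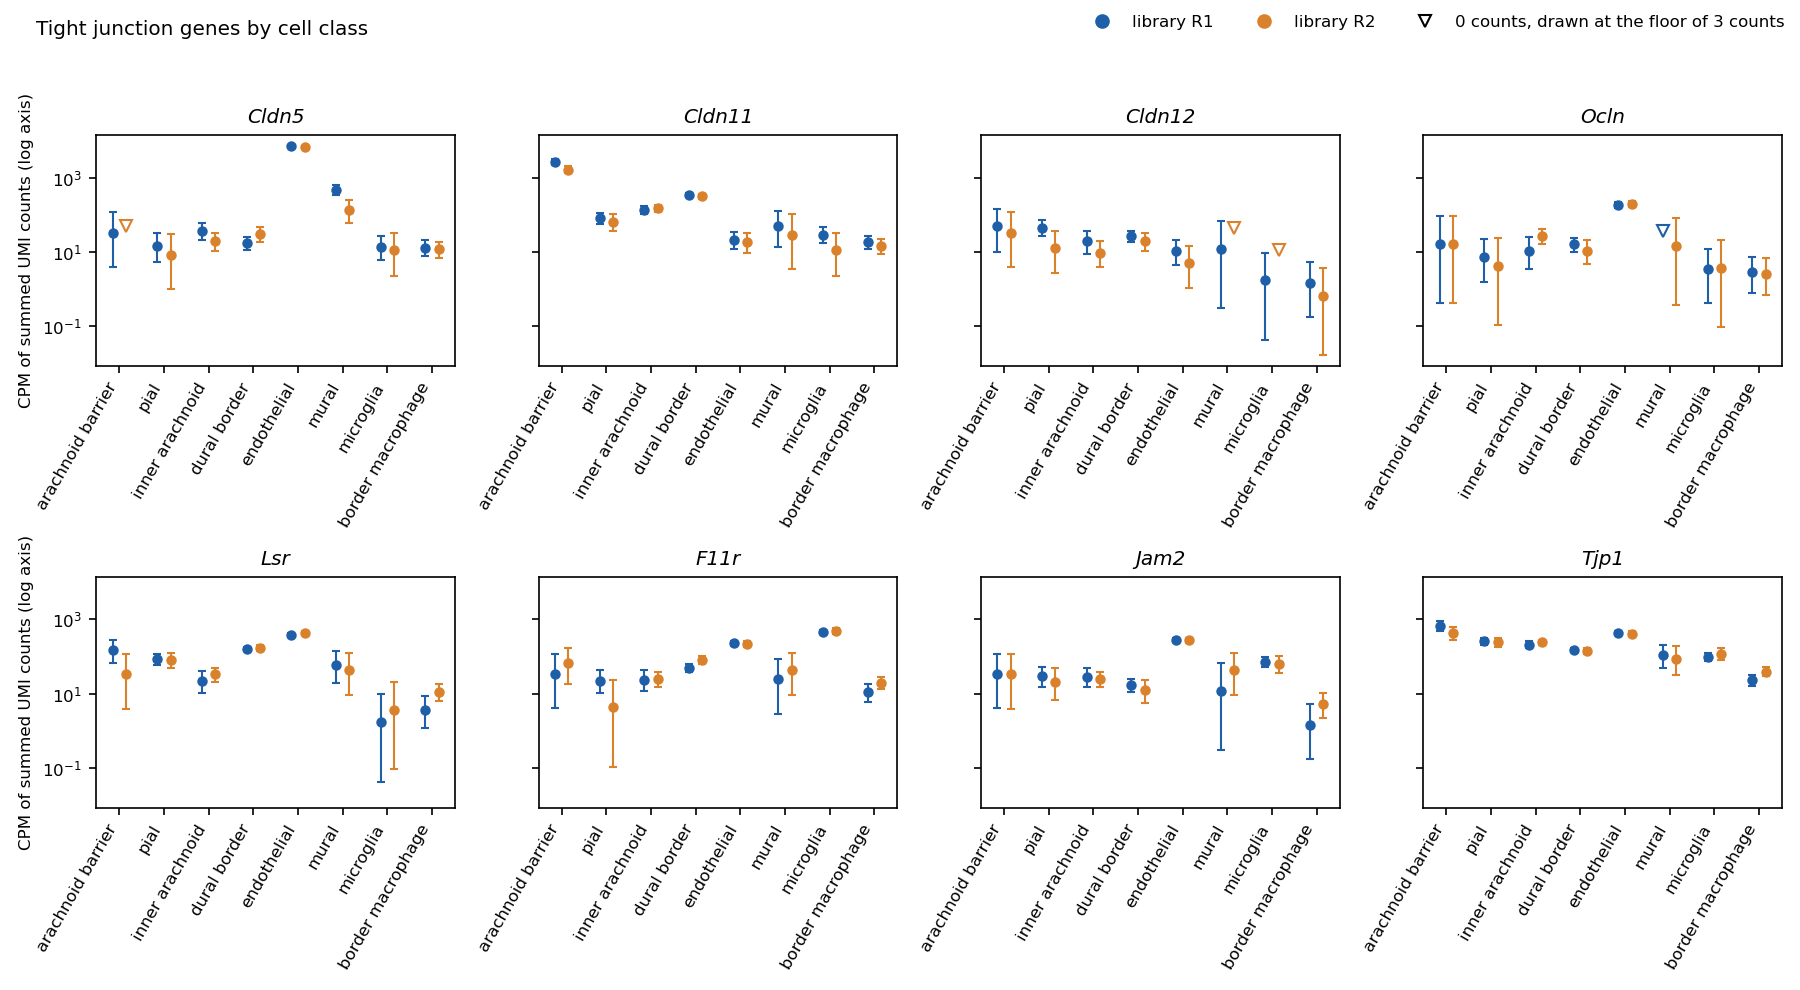
CPM of summed UMI counts (log axis) for the 8 genes that passed the low-count filter, by cell class. Points are the libraries R1 and R2, bars are exact Poisson 95% intervals for counting error, and open triangles are classes with 0 counts drawn at 3 counts. Cldn5 peaks in endothelial-like cells at 6902 and 6817 CPM, Cldn11 in arachnoid barrier-like cells at 2634 and 1645 CPM and F11r in microglia-like cells at 461 and 492 CPM.

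Cldn11 stood at 2634 CPM in R1 and 1645 CPM in R2 in arachnoid barrier-like cells, from 159 and 100 UMIs. Dural border-like cells followed with 345 and 313 CPM, inner arachnoid-like cells with 134 and 148 CPM and pial-like cells with 81.5 and 63.9 CPM. These 4 layers did not overlap between libraries, so the order among fibroblast-like layers was the same in R1 and R2. In mural-like, microglia-like, endothelial-like and border macrophage-like cells Cldn11 lay between 11.3 and 48.5 CPM. Cluster C04 had 0 Cldn11 UMIs in either library, out of 178829 and 187023 UMIs, which allows up to 16.8 and 16.04 CPM. The other endothelial-like clusters, C07 and C13, had 30.3 and 27.0 CPM and 17.4 and 27.7 CPM. Of the oligodendrocyte markers, Mog, Mag and Ermn had 0 counts in arachnoid barrier-like cells, and the 6 markers summed to 99.4 and 16.4 CPM there. An unnamed fibroblast-like cluster poor in Malat1, F03, had 314 and 229 CPM of Cldn11.

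The remaining claudins were scarce in these cells. Cldn12 was highest in arachnoid barrier-like cells at 49.7 and 32.9 CPM, on only 3 and 2 UMIs, and neighbouring classes overlapped throughout its order. Cldn12 had 44.5 and 12.8 CPM in pial-like cells and 26.7 and 19.2 CPM in dural border-like cells, against at most 1.71 CPM in either myeloid class. Cldn10 had 17 and 4 UMIs in dural border-like cells and 0 in arachnoid barrier-like and mural-like cells. The unnamed cluster C03, led by neuronal genes, held more of the Cldn10 signal, with 38 and 14 UMIs (54.6 and 72.9 CPM). Cldn1 had 1 UMI in all kept cells of R1, in a border macrophage-like cell, and 5 UMIs in R2, all in the unnamed cluster C18. In the 60358 and 60793 UMIs of arachnoid barrier-like cells, its count of 0 allows up to 49.7 and 49.3 CPM, so Cldn1 was not detectable there at this depth. Cldn1 and Cldn10 did not pass the filter on low counts and were not tested. Of 18 other claudin genes, 11 had 0 counts in the 8 named classes and none reached 50 CPM in any class.

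Ocln was highest in endothelial-like cells. It reached 181 and 198 CPM in endothelial-like cells (196 and 244 CPM without shared barcodes), against 27.6 CPM or less in each of the 7 other classes of both libraries. Arachnoid barrier-like cells had 1 Ocln UMI in each library, 16.6 and 16.4 CPM. Lsr, which marks the corners where cells meet, was highest in endothelial-like cells at 377 and 441 CPM and second in dural border-like cells at 159 and 167 CPM. Pial-like cells had 84.0 and 81.0 CPM of Lsr, inner arachnoid-like cells 21.7 and 33.1 CPM, and microglia-like and border macrophage-like cells 11.2 CPM or less. In arachnoid barrier-like cells Lsr had 9 UMIs in R1 and 2 in R2 (149 and 32.9 CPM), so its place between dural border-like and pial-like cells is not settled.

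Of the junctional adhesion molecules, F11r led in microglia-like cells and Jam2 in endothelial-like cells. F11r was highest in microglia-like cells at 461 and 492 CPM, with endothelial-like cells second at 226 and 218 CPM. Dural border-like cells had 48.6 and 80.7 CPM, and border macrophage-like cells only 10.9 and 19.7 CPM. Both microglia-like clusters carried it. The Malat1-rich cluster C11 had 545 and 605 CPM and the Malat1-poor cluster C09 had 210 and 192 CPM. Outside the named classes, the unnamed cluster C18, led by antigen presentation genes, had 132 and 184 CPM of F11r. Platelet markers summed to 39.4 and 48.8 CPM in microglia-like cells, nearly all from Gp9, while Ppbp had 0 counts. Their part in the F11r level was not tested. Jam2 was highest in endothelial-like cells at 279 and 271 CPM. Microglia-like cells came second for Jam2 at 71.9 and 63.8 CPM, and border macrophage-like cells were lowest at 1.45 and 5.26 CPM. The fibroblast-like layers lay between 12.3 and 33.1 CPM.

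Tjp1, the scaffold, was found in all 8 classes. It had 679 and 428 CPM in arachnoid barrier-like cells, 423 and 416 CPM in endothelial-like cells, 257 and 243 CPM in pial-like cells and 210.0 and 242 CPM in inner arachnoid-like cells. Dural border-like cells had 149 and 139.6 CPM, microglia-like cells 97.6 and 120.1 CPM and mural-like cells 109 and 87.5 CPM, and the last pair overlapped. Border macrophage-like cells were lowest, at 23.2 and 39.5 CPM.

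Shares of cells with at least 1 UMI were compared after every cell was thinned to 1000 UMIs, leaving out shallower cells. Cldn5 was seen in 97.6% and 97.3% of endothelial-like cells (97.8% and 94.8% before thinning), with border macrophage-like cells as background at 1.34% and 1.44%. Without the shared barcodes the share in endothelial-like cells was 99.0% and 97.5%. In mural-like cells it was 19.4% and 11.1%, of 31 and 27 cells, and 8% and 4.76% of 25 and 21 cells without the shared barcodes. Cldn11 was seen in 84.6% and 72.0% of arachnoid barrier-like cells, of 26 and 25 cells deep enough. The exact binomial 95% intervals of these shares were 65.1% to 95.6% in R1 and 50.6% to 87.9% in R2. Dural border-like cells showed Cldn11 in 26.0% and 27.0%, and border macrophage-like cells in 3.74% and 1.68%. F11r was seen in 28.8% and 25.7% of microglia-like cells. Its share was 24.6% and 15.9% in endothelial-like cells (25.5% and 16.8% without the shared barcodes), and 1.07% and 1.92% in border macrophage-like cells. The share for Tjp1 was 46.2% and 48.0% in arachnoid barrier-like cells and 37.3% and 30% in endothelial-like cells (39.3% and 31.7% without the shared barcodes). In border macrophage-like cells it was 2.94% and 4.09%. Border macrophage-like cells were set as background for claudins, Ocln and Lsr, and not for F11r and Tjp1.

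**Figure D2:**
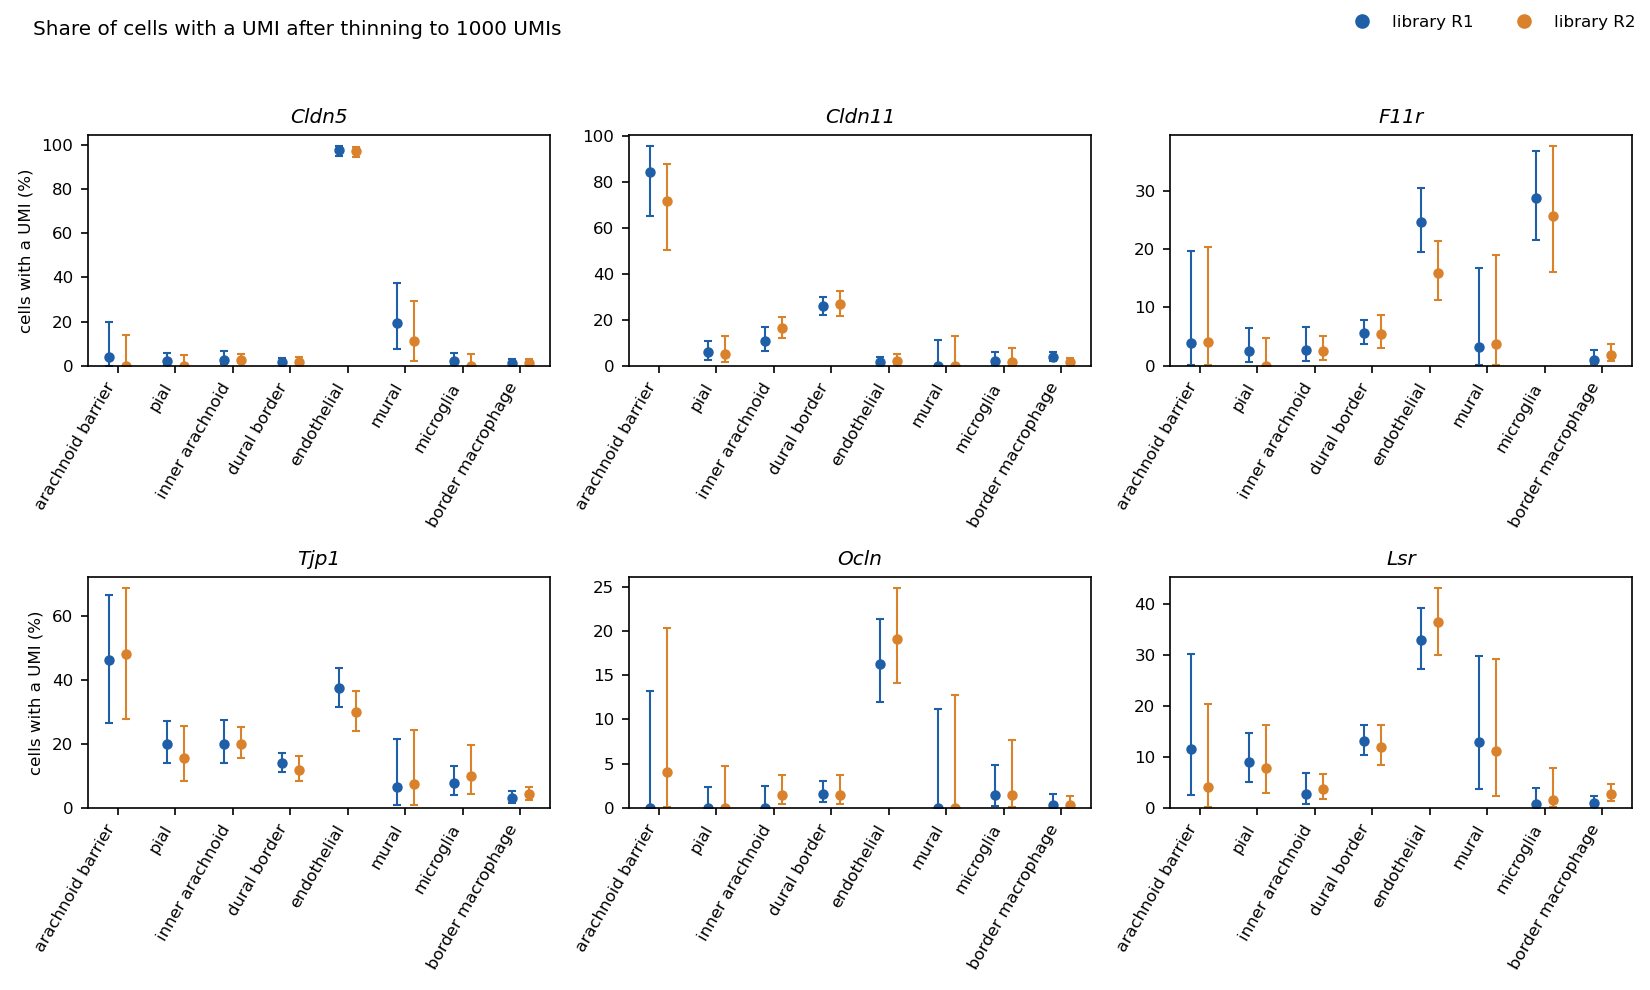
Percent of cells with at least 1 UMI after thinning each cell to 1000 UMIs, by class and library, with exact binomial 95% intervals for counting error. Cldn5 is seen in 97.6% and 97.3% of endothelial-like cells, and Cldn11 in 84.6% and 72.0% of arachnoid barrier-like cells.

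Which tight junction genes set the arachnoid barrier apart from the other leptomeningeal layers was tested first. Summed counts of the 8 classes (16 sums) were fitted together with edgeR's quasi-likelihood test, and 8 of the 10 genes were among the 10634 tested. A log2 fold change compares a class with the mean of the other classes on the log scale. A value given without R1 or without R2 was computed from the other library alone and is not a refit. Both such values can be smaller in size than the fitted one, so the gap is not a measure of library dependence alone. The CPM printed for the other side are plain means over those classes, so the fold need not match the ratio of the CPM. Cldn11 and Tjp1 were higher in arachnoid barrier-like cells than in the mean of the other 3 layers, and no member was lower. Across all genes 4.97% passed an adjusted p of 0.05, 2.45% as higher and 2.51% as lower (261 higher and 267 lower, or 327 and 154 with RLE in place of TMM scaling). Cldn11 rose by 3.48 ± 0.16 on the log2 scale (SE, edgeR adjusted p = 1.9e-106), with 3.74 in R1 alone and 3.11 in R2 alone. The SE and p of these fits rest on a spread shared by all 16 sums. They do not measure the spread of a gene between the 2 libraries of a class. Tjp1 rose by 1.12 ± 0.24 (edgeR adjusted p = 0.0003), at 679 and 428 CPM against a mean of 205 and 208 CPM over the other layers. The median log2 fold change was 0.35 over the 8 genes and -0.25 over all genes tested. Tjp1 no longer passed in cells with at most 5% mitochondrial UMIs, which left 12 and 22 arachnoid barrier-like cells (0.54 ± 0.34, edgeR adjusted p = 0.525).

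From a list of 63 other tight junction genes, of which 31 were tested, 5 were higher in arachnoid barrier-like cells and 0 lower. Cxadr, an adhesion molecule of the junction, had 1342 and 1069 CPM against 313 and 235 CPM in the other layers. Its log2 fold change was 1.81 ± 0.17. Magi1, a scaffold protein, had 116 and 65.8 CPM against 12.8 and 10.2 CPM (2.65 ± 0.68), and the kinase gene Wnk4 had 398 and 132 CPM against 105 and 69.8 CPM (1.29 ± 0.33). Without R1 these 2 log2 fold changes were 2.04 for Magi1 and 0.54 for Wnk4. The class held 60358 and 60793 UMIs, so Magi1 in both libraries and Wnk4 in R2 rest on few counts. The list's median log2 fold change was -0.03.

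Pial-like cells had less Cldn11 than the other 3 layers, which was the single member called in that comparison. Its level was 81.5 and 63.9 CPM in pial-like cells, against a mean of 1038 and 702 CPM that the arachnoid barrier-like class dominates (log2 fold change -2.62 ± 0.20, edgeR adjusted p = 1.43e-37). It was -1.40 ± 0.36 with cells clustered anew under a 5% mitochondrial limit and -1.56 ± 0.24 with clustering on split counts, where no arachnoid barrier-like class formed. Across all genes 11.9% passed, 7.57% as higher and 4.29% as lower. F11r had 22.2 and 4.26 CPM in pial-like cells and did not pass (-1.34 ± 0.49, edgeR adjusted p = 0.0517). Its log2 fold change was -2.75 without R1 and -0.47 without R2. Of the other tight junction genes 2 were higher and 4 lower in pial-like cells. The polarity gene Pard6g had 183 and 162 CPM against 53.2 and 61.4 CPM in the other layers (1.89 ± 0.27). Ildr2, a relative of Lsr, had 193 and 230.1 CPM against 1066 and 950.1 CPM (-2.08 ± 0.20).

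In inner arachnoid-like cells, Cldn11 and Lsr were lower than the mean of the other layers. Of all genes 16% were called, 4.16% as lower (1257 higher and 442 lower, or 1002 and 636 with RLE). For Cldn11 that mean was 1020 and 674 CPM, which the arachnoid barrier-like class dominates. Inner arachnoid-like cells had 134 and 148 CPM of Cldn11, more than pial-like cells at 81.5 and 63.9 CPM. Cldn11 changed by -0.94 ± 0.16 and Lsr by -1.51 ± 0.31 (edgeR adjusted p = 2.9e-07 and 3.91e-05). Lsr was 21.7 and 33.1 CPM in this class, against 131 and 93.6 CPM. The Malat1-poor cluster F02 had 22.4 and 38.3 CPM of Lsr and the Malat1-rich cluster F05 had 21.2 and 23.6 CPM. Without R1 the Lsr log2 fold change was -0.72, and without R2 it was -2.02. Of the other tight junction genes, 1 was higher (Pard6g, 1.17 ± 0.27) and 0 were lower. The Cldn11 call was lost when cells were clustered on one random part of the counts and tested on the other, where no arachnoid barrier-like class formed and the comparison was with 2 layers (0.09 ± 0.26). It was also lost when cells were clustered anew under a 5% mitochondrial limit, again with no arachnoid barrier-like class (-0.53 ± 0.35), and the Lsr call was lost with all sums thinned to equal totals (-1.84 ± 0.96). Lsr reached -2.67 ± 0.59 under the 5% limit.

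Dural border-like cells had more Lsr and F11r and less Tjp1 than the other layers, among 15.1% of all genes called, 10.2% as higher and 4.94% as lower. Lsr was higher by 1.32 ± 0.20 on the log2 scale (edgeR adjusted p = 1.2e-09), at 159 and 167 CPM against 84.9 and 49.0 CPM. F11r was higher by 1.06 ± 0.29 (edgeR adjusted p = 0.0027), at 48.6 and 80.7 CPM against 26.4 and 31.6 CPM. Tjp1 was 149 and 139.6 CPM against 382 and 304 CPM (-1.25 ± 0.18). Both dural border-like clusters had Lsr, 172 and 178 CPM in F00 and 136 and 156 CPM in F01. Of the other tight junction genes 2 were higher and 8 lower, with Ildr2 at 1169 and 1102 CPM against 741 and 660 CPM (0.997 ± 0.15) and Cxadr at 262 and 223 CPM against 673 and 517 CPM (-1.08 ± 0.12). With equal totals Lsr (0.94 ± 0.67) and F11r (0.57 ± 0.77) lost their calls, and F11r also did among cells with at most 5% mitochondrial UMIs (1.04 ± 0.39, edgeR adjusted p = 0.0586). With cells clustered anew under that limit, Lsr reached 2.18 ± 0.35.

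**Figure D3:**
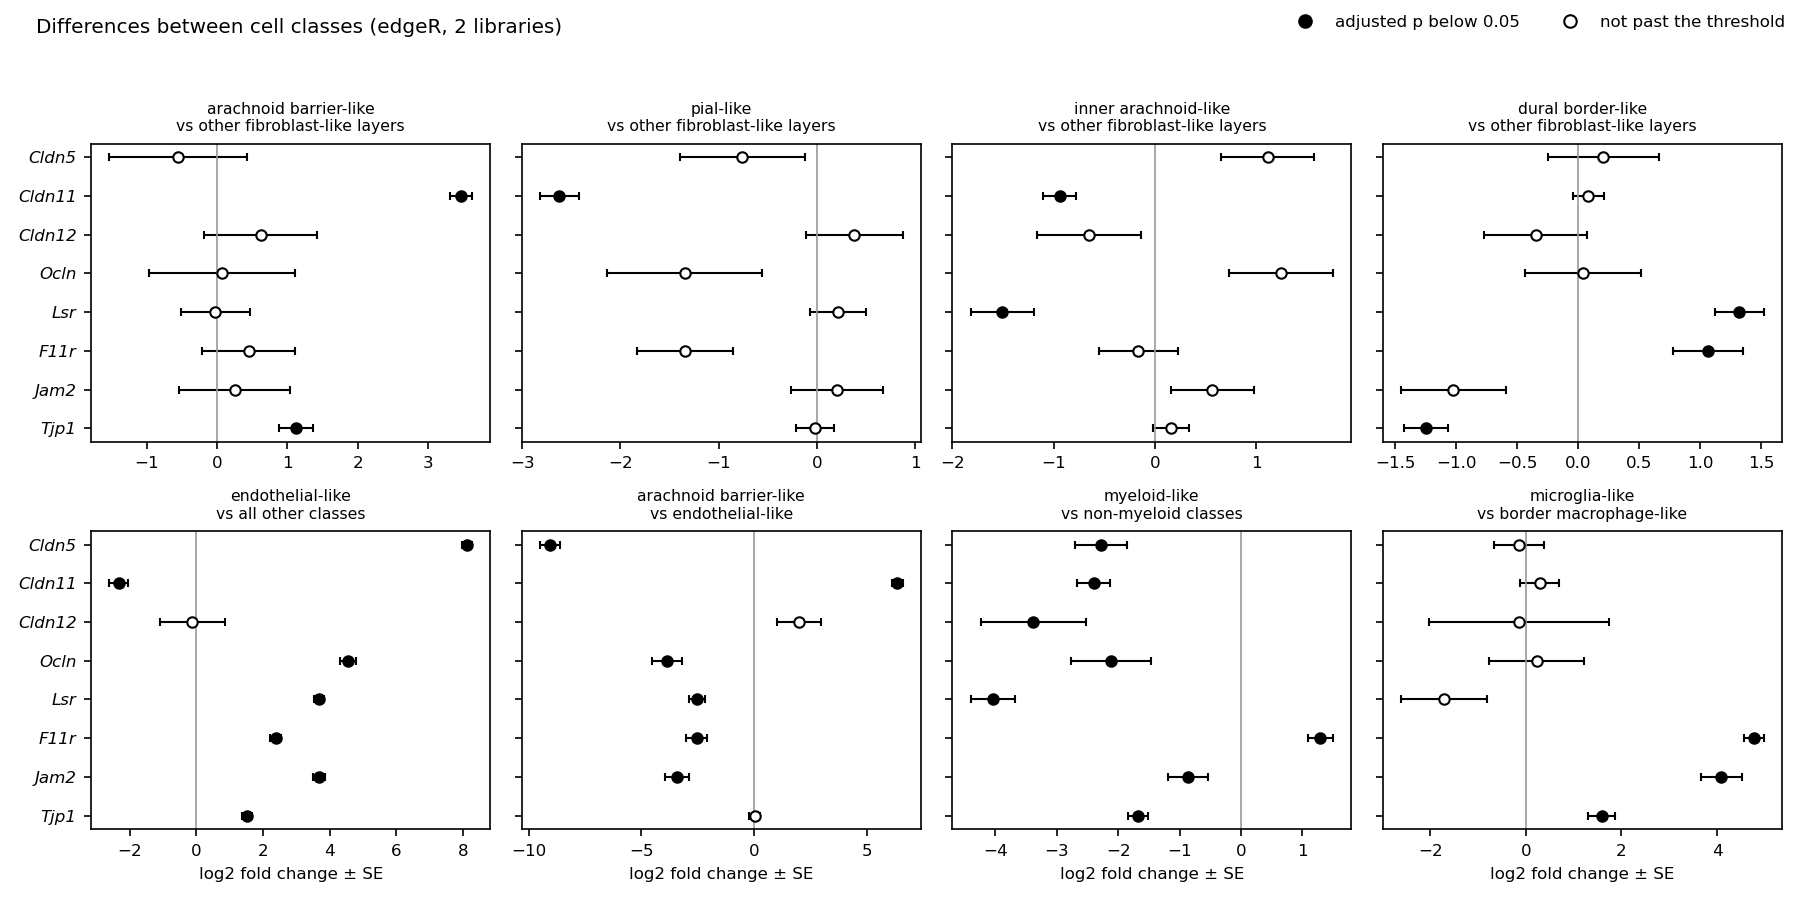
Log2 fold change ± SE (horizontal axis, scaled separately in each panel) of the 8 tested genes in 8 comparisons between classes, from edgeR fits over 2 libraries. Filled points passed an adjusted p of 0.05. Endothelial-like cells have 6 filled points to the right of 0 and Cldn11 to the left, and arachnoid barrier-like cells have Cldn11 and Tjp1 to the right of 0 among the layers.

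Endothelial-like cells were set against the mean of the 7 other classes. Cldn5, Ocln, Lsr, Jam2, F11r and Tjp1 were higher and Cldn11 was lower, 7 of the 8 genes tested, where 31.4% of all genes were called (21.8% higher, 9.63% lower). The log2 fold changes of the higher genes were 8.13 ± 0.15 for Cldn5, 4.55 ± 0.24 for Ocln, 3.67 ± 0.15 for Lsr and 3.67 ± 0.18 for Jam2. F11r was higher by 2.38 ± 0.17 and Tjp1 by 1.53 ± 0.15. Cldn11 was lower, with a log2 fold change of -2.32 ± 0.29. All 7 calls held without the shared barcodes, where Cldn5 reached 8.35 ± 0.16 and Jam2 4.65 ± 0.24. In that fit mural-like cells, a class of the other side, had 0 CPM of Jam2 in both libraries. Over all alternative fits Cldn5 lay between 7.60 and 8.97, Ocln between 4.45 and 5.30, Lsr between 3.48 and 5.01, Jam2 between 3.21 and 4.98 and Cldn11 between -3.25 and -1.90. The median over the 8 genes was 3.03, against 0.13 over all genes tested. Cldn12 did not pass (-0.12 ± 0.99). Among other tight junction genes 12 were higher and 6 lower. Esam, an endothelial adhesion molecule, had 885 and 932 CPM against a mean of 77.0 and 53.6 CPM elsewhere (7.37 ± 0.17). Cgnl1, a junction-associated protein, had 237 and 233 CPM against 72.2 and 66.7 CPM (2.24 ± 0.17). Cxadr was lower, at 17.2 and 5.07 CPM against 342 and 263 CPM (-3.38 ± 0.31).

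The endothelial-like cells formed 3 clusters that differed in these genes. C13 was led by Bmx, Gkn3 and Sema3g, genes known from arterial endothelium, C07 by Slco1a4 and Slc7a5, transporters of brain capillaries, and C04 by Ackr1 and Lrg1, known from venules. Dural border markers summed to 13008 and 14148 CPM in C13, against 818 and 1236 CPM in C07, and nearly all of this was Mgp, at 12522 and 13871 CPM in C13 and 602 and 983 CPM in C07. Another dural border marker, Slc47a1, had 86.8 and 55.4 CPM in C13 and 49.8 and 64.2 CPM in C07. Endothelial markers summed to 13512 and 14065 CPM in C13, against 19422 and 20319.9 CPM in C07, and mural markers to 625 and 434 CPM in C13, against 2472 and 1759 CPM in C07. The part of these markers in the differences between C13 and C07 was not tested. Cldn5 stood at 9926 and 11949 CPM in C13, 7664 and 7409 CPM in C07 and 2986 and 2909 CPM in C04. C04 was lowest in both libraries, but its values come from the same barcodes in R1 and R2. Jam2 had 148 and 176 CPM in C13 and 344 and 355 CPM in C07, and F11r had 365 and 333 CPM in C13 and 210.0 and 199 CPM in C07. A test of C13 against C07, added after the levels had been seen and with 1 residual degree of freedom, called Cldn5 (0.57 ± 0.16, edgeR adjusted p = 0.00918) and F11r (0.81 ± 0.25, edgeR adjusted p = 0.0174) higher in C13. It called Jam2 lower (-1.08 ± 0.27, edgeR adjusted p = 0.00317), with 15.1% of 4384 genes called, 8.28% as higher and 6.8% as lower. Ocln, Lsr and Tjp1 did not pass. When the fit did not treat the library as a block, the Cldn5 fold was as large and its error larger, and the call was lost (0.58 ± 0.22, edgeR adjusted p = 0.142). The 3 calls held without the shared barcodes.

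**Figure D4:**
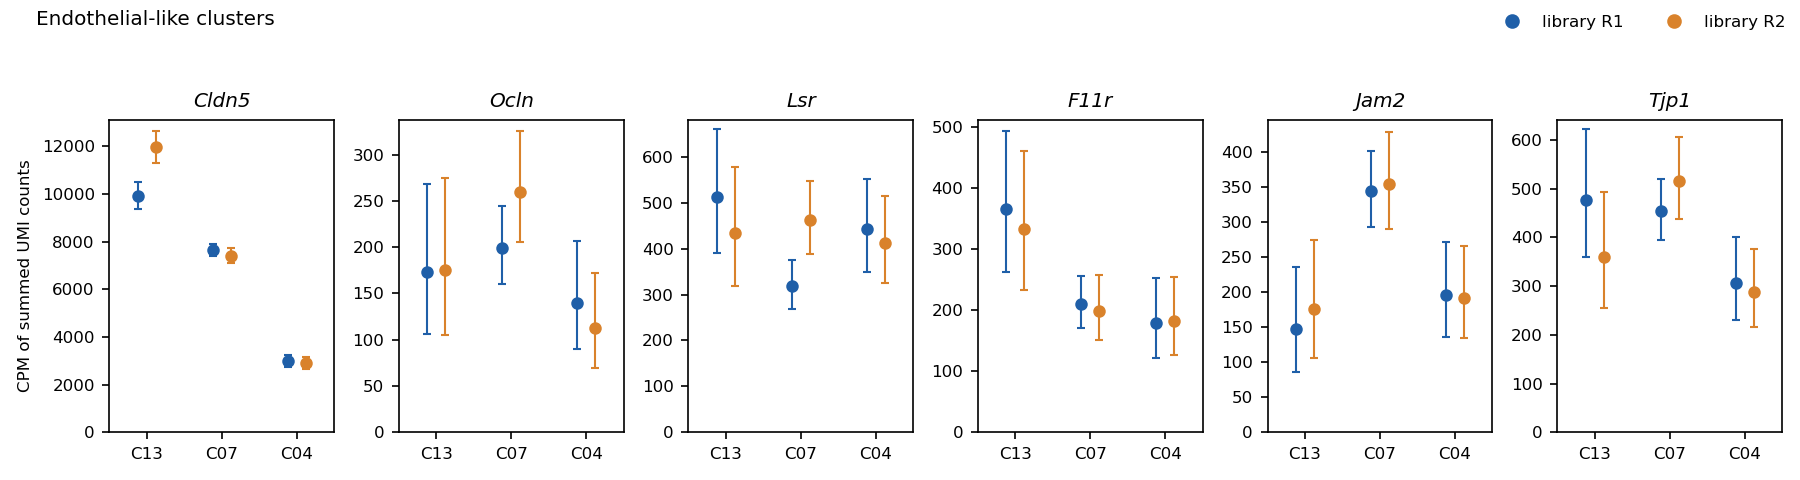
CPM of summed UMI counts (vertical axis from 0, scaled separately in each panel) for 6 genes in the endothelial-like clusters C13, C07 and C04 by library, with exact Poisson 95% intervals. Cldn5 is 9926 and 11949 CPM in C13, 7664 and 7409 CPM in C07 and 2986 and 2909 CPM in C04, and Jam2 is higher in C07 than in C13.

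The 2 barrier cell classes were then set against each other. Arachnoid barrier-like cells had more Cldn11 than endothelial-like cells, at 2634 and 1645 CPM against 21.2 and 18.6 CPM (log2 fold change 6.37 ± 0.23). They had less Cldn5, Ocln, Jam2, F11r and Lsr, and 21.5% of all genes were called, 7.81% as higher and 13.7% as lower (830 higher and 1456 lower, or 1024 and 1125 with RLE). Since Cldn5 had 2 UMIs in all arachnoid barrier-like cells, its ratio to endothelial-like cells is given from pooled counts: 0.0024, with a counting interval of 0.000291 to 0.00869. The same ratio for Ocln, also on 2 UMIs, was 0.0876 (0.0105 to 0.32). For Jam2 the pooled ratio was 0.12 (0.0325 to 0.31), for F11r 0.222 (0.081 to 0.49) and for Lsr 0.224 (0.111 to 0.404). The Lsr log2 fold change was -2.53 ± 0.36 in the fit, -3.97 without R1, -1.64 without R2 and -1.69 ± 0.57 with equal totals. For Cldn11 it was 7.33 ± 0.36 under the 5% mitochondrial limit. Tjp1 did not pass, at 679 and 428 CPM against 423 and 416 CPM (0.03 ± 0.25, edgeR adjusted p = 0.952), and its pooled ratio was 1.32 (1.01 to 1.70), so the data leave the sign of a Tjp1 difference unsettled. Cldn12 did not pass either (2.01 ± 0.98, edgeR adjusted p = 0.137). Of the other tight junction genes 8 were higher and 5 lower in arachnoid barrier-like cells. Cxadr was higher, at 1342 and 1069 CPM against 17.2 and 5.07 CPM (6.30 ± 0.29). Esam had 0 counts in arachnoid barrier-like cells of both libraries, which allows up to 49.7 and 49.3 CPM, against 885 and 932 CPM in endothelial-like cells. Fold changes of arachnoid barrier-like cells depend on scaling: the RLE method moved the median of all genes by 0.22 against endothelial-like cells and by 0.17 against the other layers, without changing any call of a member.

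Myeloid cells, taken as the mean of the microglia-like and border macrophage-like classes, had more F11r and less of the 7 other tested genes than the mean of the 6 non-myeloid classes. In this comparison 54.3% of all genes were called, 32.5% as higher and 21.8% as lower. F11r was higher by 1.29 ± 0.21 on the log2 scale, at 236 and 256 CPM against 63.0 and 72.9 CPM. That mean joins 461 and 492 CPM in microglia-like cells with 10.9 and 19.7 CPM in border macrophage-like cells, which lay below the non-myeloid mean. The call was lost with a clustering on split counts (0.62 ± 0.29) and with equal totals (0.89 ± 1.03). The log2 fold change was -4.04 ± 0.36 for Lsr (-2.81 without R1), -3.38 ± 0.86 for Cldn12 (-1.69 without R1 and -2.18 without R2) and -1.68 ± 0.17 for Tjp1. It was -2.40 ± 0.27 for Cldn11, -2.28 ± 0.43 for Cldn5 (-1.69 without R1) and -2.12 ± 0.65 for Ocln (-1.25 without R2). For Lsr, Cldn12 and Ocln both values from a single library were smaller in size than the fitted one. In 1 alternative fit each, Cldn5 stood at -1.94 and Ocln at -2.32 but their errors could not be estimated. In cells with at least 1% Malat1 UMIs the log2 fold changes of the 7 lower genes were further from 0, from -2.11 for Jam2 to -6.16 for Lsr. Jam2 was called lower (-0.86 ± 0.32, edgeR adjusted p = 0.0162) and turned to 0.20 ± 0.56 without the shared barcodes. Mural-like cells, a non-myeloid class, had 12.1 and 43.7 CPM of Jam2 on 4 UMIs. Without the shared barcodes they had 0 CPM in both libraries. The part of this in the change was not tested. Among myeloid cells the low Jam2 values were those of border macrophage-like cells, at 1.45 and 5.26 CPM. Microglia-like cells had 71.9 and 63.8 CPM of Jam2, second only to endothelial-like cells among the classes. For Tjp1, microglia-like cells (97.6 and 120.1 CPM) overlapped mural-like cells (109 and 87.5 CPM). For Cldn5, both myeloid classes lay between 11.3 and 13.7 CPM and overlapped pial-like cells (14.8 and 8.52 CPM). For Cldn11, both lay between 11.3 and 29.1 CPM and overlapped endothelial-like cells (21.2 and 18.6 CPM). The lower Cldn5 and Cldn11 of myeloid cells therefore does not hold against each non-myeloid class. Of the other tight junction genes 2 were higher and 17 lower. Afdn, which links junctions to actin, had 17.2 and 11.7 CPM against 316 and 314 CPM (-3.82 ± 0.29).

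The myeloid classes differed from each other in the adhesion molecules. In a comparison added after the levels had been seen, microglia-like cells had more F11r, Jam2 and Tjp1 than border macrophage-like cells, with 20% of all genes called, 7.99% as higher and 12.1% as lower (850 higher and 1282 lower, or 1035 and 988 with RLE). F11r was 461 and 492 CPM against 10.9 and 19.7 CPM (4.77 ± 0.21, edgeR adjusted p = 2.15e-114), and the classes did not overlap. Jam2 was 71.9 and 63.8 CPM against 1.45 and 5.26 CPM (4.09 ± 0.43), and without R1 its log2 fold change was 2.82. Tjp1 was 97.6 and 120.1 CPM against 23.2 and 39.5 CPM (1.59 ± 0.28). With equal totals F11r kept its call (5.92 ± 0.70), while Tjp1 (1.65 ± 0.70) and Jam2 (2.04 ± 1.15) did not pass. In Malat1-rich cells Jam2 reached 6.40 ± 0.66 and Tjp1 2.5 ± 0.33. No claudin, nor Ocln or Lsr, passed between the myeloid classes.

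Over the 16 sums of the 8 classes, the genes most like each member were named by Pearson's correlation of log2(CPM + 1) among 10626 genes. The points share libraries and classes, so these values are descriptions. Cldn5 was most like Adgrl4 (0.95), Ly6c1 (0.94) and Vwf (0.94), and Lsr was most like Ramp2 (0.95), Srpr (0.94) and Pir (0.93). Cldn11 was most like Cdh1 (0.97), the epithelial cadherin that also served as an arachnoid barrier marker, then Scara3 (0.97) and Sema3d (0.96). Ocln was most like Foxo1 (0.95), Slc7a1 (0.91) and Nedd9 (0.87), and Jam2 most like Tmem184b (0.88), Macf1 (0.86) and Ets1 (0.83). F11r was most like Klk8 (0.88), Anxa3 (0.87) and Dkc1 (0.86), and Tjp1 most like Ptpn14 (0.87), Qsox1 (0.86) and Ldlrad3 (0.85).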

How the data were processed

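Single-cell RNA was measured in 2 libraries. The authors deposited a matrix of unnormalised counts for each library. Per the file headers these UMI counts came from Cell Ranger 4.0.0, and the submitters' processing notes name the mm10 build. The deposited feature and barcode lists name the rows and columns of these counts, and symbols were used as given.

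Barcodes with fewer than 400 genes or over 10% mitochondrial UMIs were left out. A doublet caller (Scrublet in scanpy 1.11.5) marked 3 barcodes in each library, 0.1% and 0.0987%, which were removed, so doublets remain largely untreated. Cells were clustered (Leiden, 2 rounds) without tight junction genes and named "-like" from fixed marker lists. UMIs were summed per class and library and tested with edgeR 4.0.16 (quasi-likelihood, TMM, filterByExpr, library as a block, Benjamini-Hochberg adjusted p of 0.05 over all genes tested). The main fit had 16 sums, 7 residual degrees of freedom and 10634 genes. The block is the library both classes come from. Deviations of the classes of a library correlated at a median of 0.112. The script was tested on simulated data first. All intervals cover counting error only.

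The members and lists were chosen with earlier results of these data known. All 10 members were described. Other tight junction genes were named, per comparison and direction, from the 3 largest fold changes past the threshold, with the same sign in both libraries and at least 50 CPM on the higher side. Promoter windows come from RefSeq (GRCm38.p6), and figures were drawn with matplotlib 3.10.9. Alternatives covered normalization, filters, DESeq2 1.42.0, the block, clustering, thinning and each library taken alone.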

Additional observations from a re-analysis of the deposited data

How the results depend on the processing

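Of 35 member results past the threshold, 23 kept their call in every refit that tested them. Refits that lacked the comparison or did not test the gene were not counted. RLE scaling, DESeq2 and the Malat1 limit ended no member's call, and RLE moved the median of all genes by up to 0.22 on the log2 scale. Without the library as a block, the pairing of classes within a library being ignored, 1 gene in place of 2 was higher in C13 than in C07 and no other member's call changed. When cells were clustered anew under the 5% mitochondrial limit or on split counts, no arachnoid barrier-like class formed, so its comparisons could not be run and the other layers were set against fewer. At that limit 1 member was higher in pial-like cells, 1 lower in inner arachnoid-like, 4 higher in dural border-like and 1 lower in microglia-like than border macrophage-like cells. With the class names kept at that limit (added after seeing the data), 1 member was higher in arachnoid barrier-like cells than in the other layers and 1 in dural border-like cells.

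At Leiden resolution 1.5, 2 members were lower in pial-like cells (F11r at -1.37), 1 was higher in inner arachnoid-like cells and 2 were lower in dural border-like cells. Without shared barcodes 2 were lower in pial-like cells. On split counts 1 member was lower in inner arachnoid-like cells, where Cldn11 turned to 0.089, and 0 were higher and 4 lower in myeloid cells. With equal totals 1 was lower in inner arachnoid-like cells, 0 were higher in dural border-like cells, 0 were higher and 4 lower in myeloid cells, and 1 was higher in microglia-like than border macrophage-like cells. These counts cover only members tested in each refit, so a smaller count can mean members not tested. With equal totals 2515 genes were tested in place of 10634. The myeloid Jam2 value turned to 0.093 with equal totals and to 0.20 without shared barcodes. Tjp1, not called between arachnoid barrier-like and endothelial-like cells, turned to -0.00062 without the low-count filter and to -0.63 under the 5% limit with class names kept. The cause was not tested for any of these.

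Cldn5 in endothelial-like cells averaged 6338 CPM at the 5% limit, 7181 CPM in Malat1-rich cells and 8456 CPM without shared barcodes, against 6859 CPM. Its share of cells was 96.3% unthinned and 89.2% at 500 UMIs, and that of Cldn11 in arachnoid barrier-like cells was 51.4% at 500 UMIs. F11r in microglia-like cells averaged 574.4 CPM at the 5% limit and 573.7 CPM in Malat1-rich cells, and its share was 48.0% unthinned and 12.2% at 500 UMIs. Depth limits Cldn1, Cldn10 and Cldn12 throughout, and Cldn5, Ocln, Jam2, F11r and Lsr in arachnoid barrier-like cells, where each had 11 UMIs or fewer over both libraries.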

Other observations

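Cldn5 and Cldn10 were also found in clusters that carry no class name. The unnamed cluster C08, whose leading genes included Meg3, Gria2, Ntsr2 and Bcan, had 40 Cldn5 UMIs in R1 and 55 in R2, which are 419.5 and 394 CPM. They came from 5 of 35 cells in R1 and 9 of 52 in R2. C08 held markers of several cell types: neuron markers summed to 6807 and 1941 CPM, astrocyte markers to 2958 and 3825 CPM, fibroblast markers to 3325 and 5251 CPM and endothelial markers to 1238 and 1705 CPM. Their part in its Cldn5 level was not tested. The unnamed cluster C03, led by Pcsk1n and Nrgn, also known from neurons, had 64.6 and 57.3 CPM of Cldn5 beside its Cldn10 counts given above. The 5 Cldn1 UMIs of R2 came from 4 of the 80 cells of cluster C18, which was led by antigen presentation genes such as H2-Eb1 and Cd74.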
